A study of Mus musculus with 4 samples.

Results

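Tlr4, Ly96, Cd14, Lbp, Tirap, Myd88, Ticam2, Ticam1 and Irak3 encode the receptor, cofactors, adaptors and 1 brake by which mammalian cells sense bacterial lipopolysaccharide (LPS, endotoxin). They were taken by symbol from the gene list of the count tables, where each of the 9 symbols occurs once among 32285 genes, and followed through cell classes of the mouse lung. The animals were wild-type male C57BL/6 mice of 6 to 7 weeks. All received an intratracheal injection, either 100 µL of phosphate-buffered saline (PBS) or 200 µg of LPS from E. coli O55:B5. In the groups marked RT the thorax was irradiated with 1 Gy of X-rays on the following day. Lungs were collected at 48 hours, which in the RT groups was 24 hours after irradiation, and mononuclear cells were separated on Ficoll-Paque of grade 1.084 before droplet single-cell RNA sequencing. The 4 groups are named PBS, PBS+RT, LPS and LPS+RT. Each is 1 library, and the labels do not give the number of mice behind a library.

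LPS-binding protein, the product of Lbp, is a secreted protein that extracts LPS from bacterial membranes and passes it to CD14. CD14 hands LPS to MD-2, the product of Ly96, which sits in the outer domain of TLR4 and forms the LPS-binding pocket. At the plasma membrane the bridging adaptor TIRAP recruits MyD88, which starts NF-κB signalling and transcription of inflammatory cytokines. After internalization TRAM (Ticam2) recruits TRIF (Ticam1), which leads to type I interferon. IRAK-M, the product of Irak3, restrains signalling downstream of MyD88 and is known for its part in endotoxin tolerance of macrophages. In the lung, alveolar macrophages meet inhaled endotoxin first, and neutrophils enter the airspaces afterwards.

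The libraries held 33682 cells after filtering, between 6206 and 9641 each, with a median of 4277 to 8563.5 UMIs per cell. A UMI, or unique molecular identifier, is a tag that lets copies of the same RNA molecule be counted once. Levels are given as CPM, the UMIs of a gene per 1000000 UMIs of a class in a library, and class names with the ending "-like" were rebuilt from marker genes. Neutrophil-like cells made up 40.5% of the LPS library and 9.47% of LPS+RT, against 0.89% of PBS and 1.85% of PBS+RT, shares that the density separation can set. Inflammatory macrophage-like cells (Nos2, Arg1, Saa3) numbered 0, 1, 574 and 123 in the same order. With a single library behind every group, nothing could be checked against replicates and no p-value is given. The intervals are exact at 95% and reflect counting error alone. A ratio between libraries was called where it reached 1.5-fold either way, its interval left out 1 and both libraries had at least 100 cells of the class. Orders of classes are over those with at least 30 cells in the library, and smaller classes that stood higher are named with their cell number where the order matters. The neutrophil-like class is made of different clusters in different libraries. In PBS and PBS+RT it is mainly cluster 22, led by Ngp and Camp, genes of neutrophil secondary granules (49 of 79 and 93 of 115 cells). In LPS it is mainly clusters 4 (1446 cells), 8 (939 cells), 15 (536 cells) and 20 (478 cells), and in LPS+RT clusters 8 (418 cells), 4 (212 cells) and 15 (177 cells), with cluster 22 at 212 and 98 cells. The alveolar macrophage-like class was mainly cluster 6 in PBS (575 of 644 cells) and PBS+RT (670 of 688), and mainly cluster 16 in LPS (131 of 182) and LPS+RT (531 of 814).

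The annotation of the mm10 genome (GENCODE) places the 9 genes, all protein-coding, on 7 chromosomes. Tlr4 lies at chr4:66827584-66930284 on the plus strand, Ly96 at chr1:16688051-16709611 on the plus strand and Lbp at chr2:158306493-158332852 on the plus strand. Tirap (chr9:35184551-35200291) and Myd88 (chr9:119335934-119341411) are on the minus strand of chromosome 9. Ticam1 (chr17:56269319-56276786) and Irak3 (chr10:120141648-120202130) are on minus strands, and Cd14 and Ticam2 are on the minus strand of chromosome 18. Counting is uncertain for Myd88, which lies within the annotated span of Slc22a14 on the same strand, and for Ticam2, which shares 14299 bases with Tmed7 on the same strand. Tirap, Myd88 and Irak3 also overlap genes on the opposite strand, and whether the counting used strand is not given in the sources used here.

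**Figure D1:**
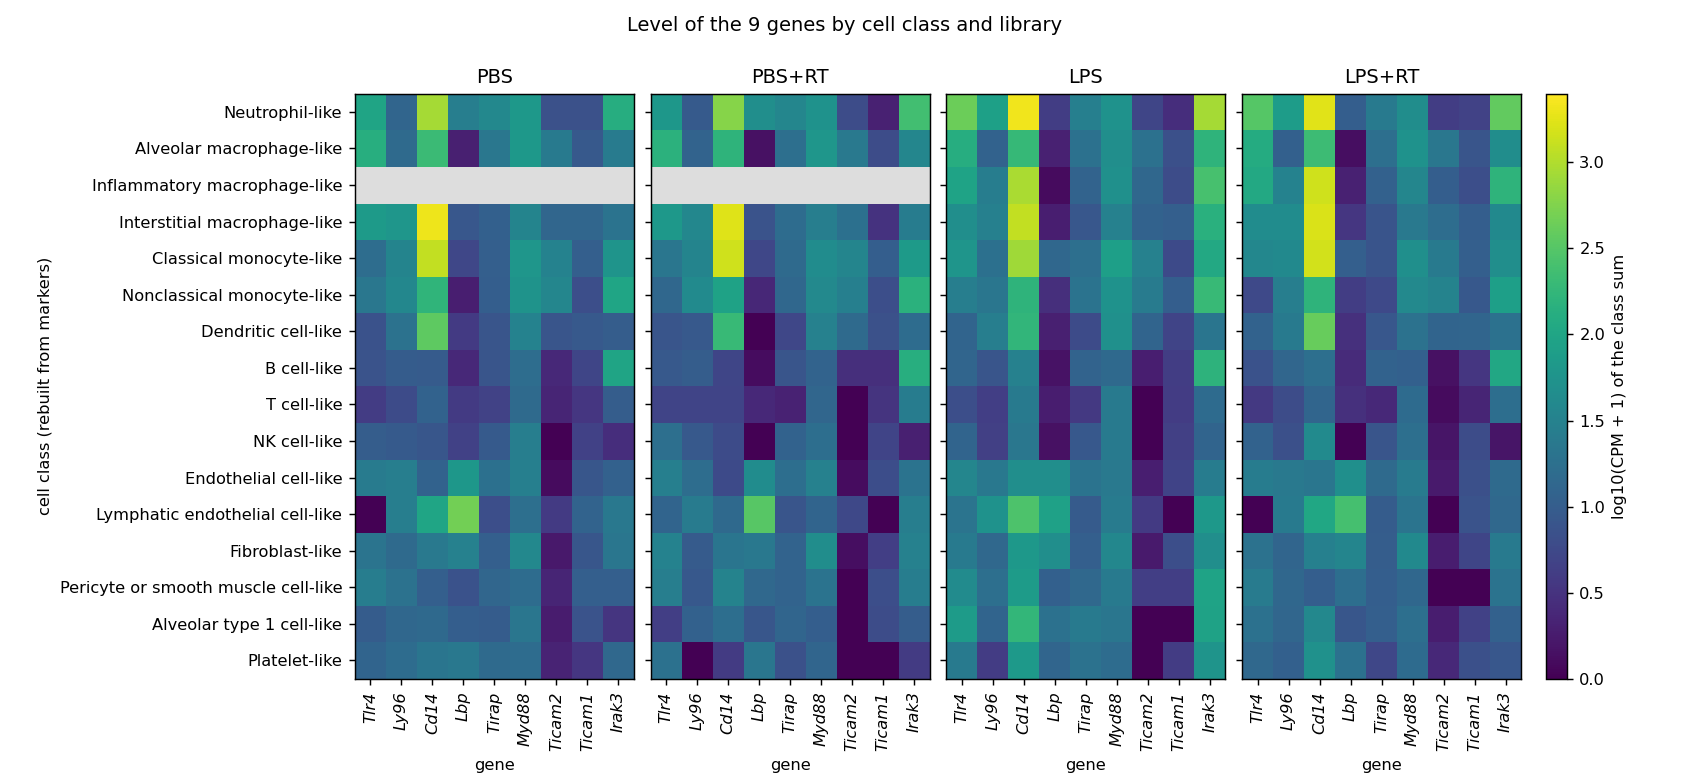
Level of the 9 genes (columns) in the marker-defined classes (rows) in the 4 libraries, as log10(CPM + 1) of the UMIs summed over the class; grey marks classes with under 30 cells. Cd14 is the brightest column in the neutrophil-like, macrophage-like and classical monocyte-like rows, Ticam2 is dark outside myeloid rows, and Lbp is brightest in the lymphatic endothelial cell-like row of those drawn.

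RefSeq promoter windows (build GRCm38.p6) matched 4 of the 9 genes, with 6 start sites. The 250 bases upstream of both Irak3 start sites and of the Myd88 start site are shown, Irak3 because its level was called in 9 of 9 classes in LPS against PBS and in 9 of 11 in LPS+RT against LPS, and Myd88 because it held the 1 motif match among the 6 windows. Capitals mark that match, an interferon-stimulated response element (ISRE), and each window reads 5′ to 3′ on the minus strand.
Irak3, chr10:120201598-120201847: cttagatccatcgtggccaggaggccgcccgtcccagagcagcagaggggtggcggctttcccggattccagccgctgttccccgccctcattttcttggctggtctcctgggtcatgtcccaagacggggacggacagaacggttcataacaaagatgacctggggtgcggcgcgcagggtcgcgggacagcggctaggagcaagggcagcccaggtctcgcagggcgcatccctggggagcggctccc
Irak3, chr10:120202131-120202380: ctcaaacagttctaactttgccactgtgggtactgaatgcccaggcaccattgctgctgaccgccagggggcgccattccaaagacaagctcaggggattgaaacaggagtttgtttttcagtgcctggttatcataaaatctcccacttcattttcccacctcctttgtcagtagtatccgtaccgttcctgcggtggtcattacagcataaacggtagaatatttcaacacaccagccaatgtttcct
Myd88, chr9:119340019-119340268: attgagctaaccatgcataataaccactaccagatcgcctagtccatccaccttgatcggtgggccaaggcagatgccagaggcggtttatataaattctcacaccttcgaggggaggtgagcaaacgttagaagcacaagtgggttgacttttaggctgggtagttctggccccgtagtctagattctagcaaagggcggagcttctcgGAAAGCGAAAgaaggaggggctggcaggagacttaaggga
The motifs searched on both strands were the NF-κB consensus, AP-1 (TGANTCA), C/EBP (TTNNGCAA), ISRE (a pair of GAAA sites with any 2 bases between them) and PU.1 (GAGGAAGT). Among 32851 promoters of the same length they occurred in 3.90%, 6.75%, 9.56%, 2.98% and 2.44%. In the Myd88 window the ISRE letters start 40 bases upstream of the start site. None of the 5 motifs matched either Irak3 window, which says only that these letters are not there.

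Tlr4, the signalling receptor, was carried in PBS lungs mainly by alveolar macrophage-like cells. Their Tlr4 level was 135 CPM in PBS, 154 CPM in PBS+RT, 130 CPM in LPS and 124 CPM in LPS+RT, so the 4 libraries lay close together and no ratio in this class was called. Neutrophil-like cells had 94.7 CPM in PBS (48 UMIs, interval 69.8 to 125), 61.6 CPM in PBS+RT (60 UMIs, 47.0 to 79.3), 437 CPM in LPS (8162 UMIs, 428 to 447) and 315 CPM in LPS+RT (1106 UMIs, 296 to 334). Both LPS libraries were thus above both PBS libraries, with no overlap of intervals, and in both of them neutrophil-like cells were the highest class. In PBS the intervals of the second and the third class, neutrophil-like and interstitial macrophage-like cells (69.3 CPM), overlapped. Inflammatory macrophage-like cells, present in the LPS libraries, had 94.0 CPM in LPS and 110 CPM in LPS+RT. In LPS+RT that interval overlapped the one of alveolar macrophage-like cells.

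Endothelial cell-like and fibroblast-like cells carried Tlr4 at lower levels. Endothelial cell-like cells had 25.3, 28.2, 35.4 and 25.9 CPM in PBS, PBS+RT, LPS and LPS+RT. Within the endothelium, large vessel cells had 47.4, 65.3, 65.4 and 46.9 CPM, and general capillary cells had 19.7, 22.4, 32.1 and 22.1 CPM, so large vessel cells were higher in each of the 4 libraries. Adventitial fibroblasts had 36.7, 65.1, 48.8 and 33.2 CPM, against 19.2, 31.0, 24.3 and 17.9 CPM in all fibroblast-like cells. B cell-like cells ranged from 6.11 to 11.9 CPM and T cell-like cells from 2.70 to 5.56 CPM, which serve as low references.

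The share of cells with at least 1 Tlr4 UMI depends on how deeply a cell was sequenced. It was 87.9%, 87.5%, 95.6% and 88.2% in alveolar macrophage-like cells, whose median depth was 23626 to 37335 UMIs, and 22.8%, 26.1%, 57.5% and 42.3% in neutrophil-like cells at 3806 to 6020 UMIs. B cell-like cells, which should hold little Tlr4, gave 3.05% to 5.48% at 4976 to 7819 UMIs. Cells were then thinned to 2000 UMIs, and those with fewer were left out. This left out 656 of 3611 neutrophil-like cells in LPS and 250 of 913 in LPS+RT. The shares became 24.3%, 28.7%, 25.8% and 21.3% in alveolar macrophage-like cells and 15.9%, 12.5%, 47.1% and 38.8% in neutrophil-like cells.

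Ly96, whose product MD-2 binds LPS inside the receptor complex, had another distribution. In neutrophil-like cells it stood at 11.8 CPM in PBS (6 UMIs) and 8.21 CPM in PBS+RT (8 UMIs), against 83.3 CPM in LPS (1556 UMIs) and 74.2 CPM in LPS+RT (261 UMIs). The LPS libraries did not overlap the PBS libraries. Interstitial macrophage-like cells had 60.7 CPM in PBS, the highest class there, and 36.5, 28.9 and 43.7 CPM in PBS+RT, LPS and LPS+RT, with 37 cells in PBS+RT. Classical monocyte-like cells had 33.0, 32.9, 16.8 and 39.8 CPM and nonclassical monocyte-like cells 36.0, 42.0, 20.7 and 27.8 CPM. In PBS the intervals of these 3 classes overlapped from one to the next. Alveolar macrophage-like cells, which held most of the Tlr4 UMIs in PBS, had a Ly96 level of only 14.0, 11.0, 10.7 and 10.1 CPM, close to the 8.86, 9.10, 6.85 and 12.2 CPM of B cell-like cells. Endothelial cell-like cells had 27.6, 15.3, 21.8 and 22.5 CPM, and among them aerocytes, the capillary cells specialised for gas exchange, had 40.3, 20.3, 28.8 and 31.2 CPM.

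Cd14, the coreceptor that hands LPS to MD-2, was highest in interstitial macrophage-like cells in PBS at 2062 CPM (interval 1964 to 2163). In that class it was 1738 CPM in PBS+RT, 1236 CPM in LPS and 1610 CPM in LPS+RT. Classical monocyte-like cells had 1216, 1429, 822 and 1451 CPM. The level in neutrophil-like cells was 879, 613, 2116 and 1769 CPM, again with both LPS libraries above both PBS libraries. Inflammatory macrophage-like cells had 934 CPM in LPS and 1428 CPM in LPS+RT. Alveolar macrophage-like cells kept to a narrow range of 162 to 215 CPM over the 4 libraries. Outside myeloid cells Cd14 in PBS was 97.4 CPM in lymphatic endothelial cell-like cells (35 UMIs in 74 cells), against 10.6 CPM in endothelial cell-like, 22.7 CPM in fibroblast-like and 8.57 CPM in B cell-like cells.

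**Figure D2:**
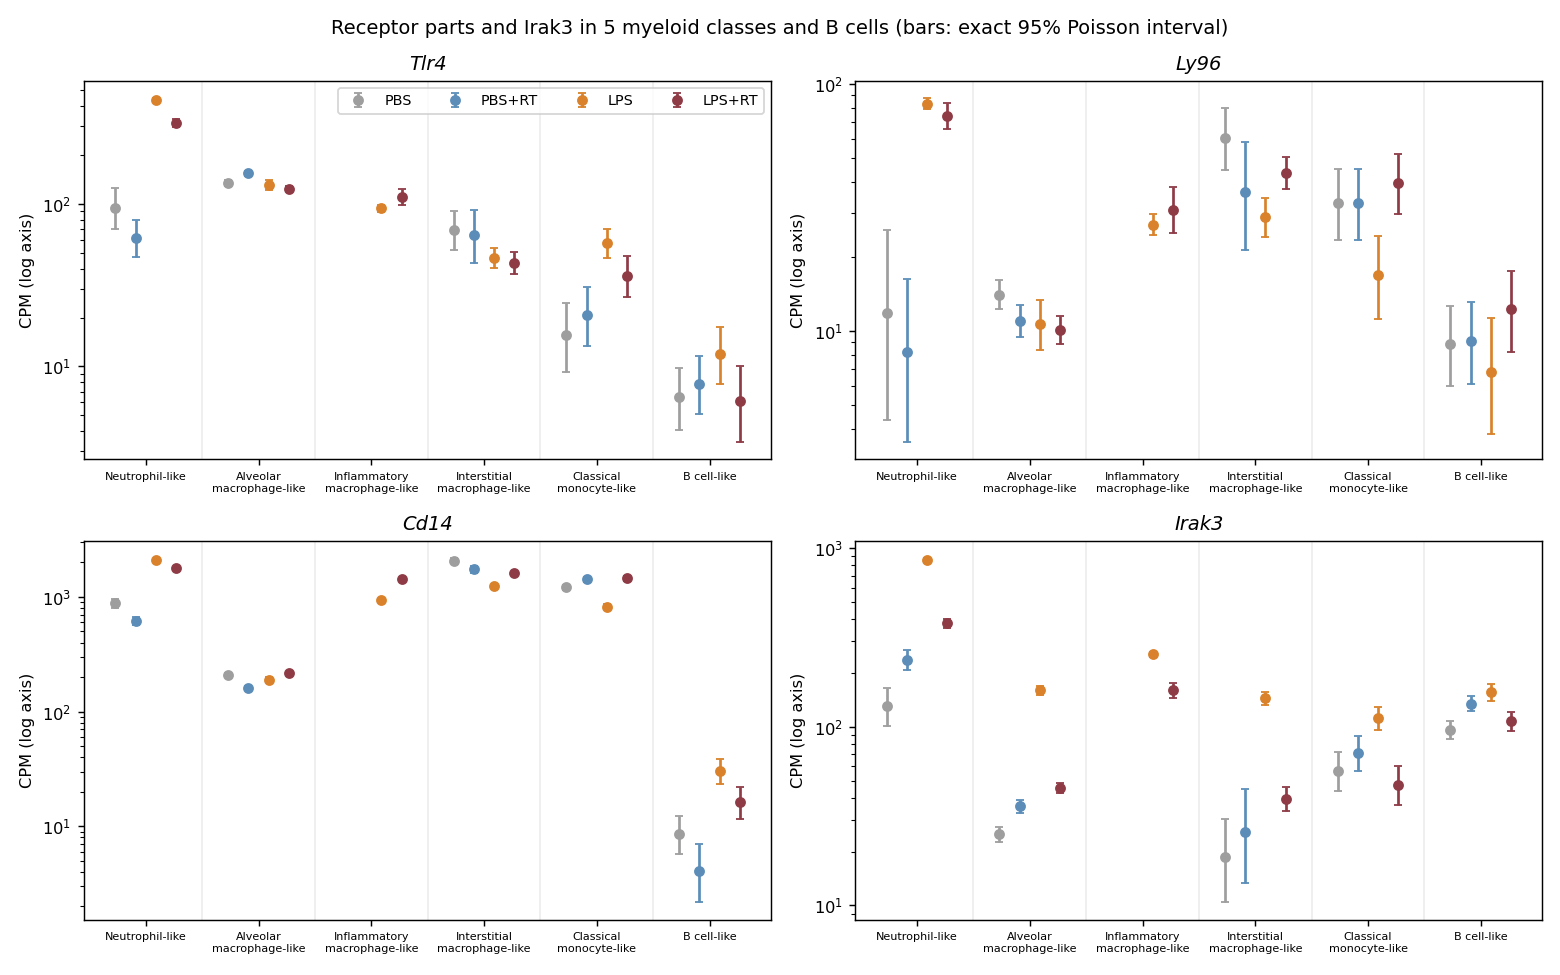
Levels of Tlr4, Ly96, Cd14 and Irak3 in CPM (log axis) in 5 myeloid classes and in B cell-like cells; each point is 1 library and bars are exact 95% Poisson intervals. In neutrophil-like cells the LPS and LPS+RT points of all 4 genes lie above the PBS and PBS+RT points, while Tlr4 and Cd14 in alveolar macrophage-like cells stay within 124 to 154 CPM and 162 to 215 CPM.

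Lbp, which encodes the secreted carrier of LPS and is best known as a liver product, was counted here mainly in endothelial and fibroblast-like cells and in the few alveolar type 2 cell-like cells. Lymphatic endothelial cell-like cells had 473 CPM in PBS (74 cells), 323 CPM in PBS+RT (48 cells), 86.9 CPM in LPS (31 cells) and 250 CPM in LPS+RT (76 cells). The lymphatic level in LPS lay below that of the other 3 libraries with no overlap of intervals, and S100a8 and S100a9, markers of neutrophils, stood in that class at 8.55% of their neutrophil-like level. Large vessel endothelial cells had 252, 170, 218 and 238 CPM, general capillary cells 66.2, 44.6, 52.5 and 47.8 CPM, and aerocytes 9.03, 2.93, 3.93 and 5.65 CPM. The intervals of large vessel cells, general capillary cells and aerocytes did not overlap in any of the 4 libraries. Fibroblast-like cells had 29.7, 22.1, 47.1 and 34.5 CPM. Alveolar type 2 cell-like cells, the surfactant-making cells of the alveolus, numbered 12, 20, 17 and 16 cells. They had 54.9 CPM of Lbp in PBS, 41.4 CPM in PBS+RT, 111 CPM in LPS (interval 85.0 to 142) and an interval of 59.2 to 106 CPM in LPS+RT. In both LPS libraries this lay above the endothelial cell-like level of 46.8 and 48.8 CPM with no overlap of intervals. The alveolar type 2 cell-like values leave out cluster 30 (154, 52, 55 and 78 cells), with Sftpc and Sftpa1 among its top genes. It stayed unnamed because it held markers of 2 classes. Alveolar macrophage-like cells ranged from 0.357 to 1.02 CPM and B cell-like cells from 0.314 to 1.63 CPM.

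Lbp was also counted in neutrophil-like cells, at its highest level in 1 of their clusters. In cluster 22, which carries the granule genes Ngp, Camp and Ltf, Lbp stood at 33.0 CPM in PBS (14 UMIs in 8 of 49 cells), 47.3 CPM in PBS+RT (45 UMIs in 19 of 93 cells), 18.0 CPM in LPS (29 UMIs in 12 of 212 cells) and 30.8 CPM in LPS+RT (24 UMIs in 13 of 98 cells). In cluster 4 it was 2.07 CPM in LPS and 3.42 CPM in LPS+RT, and in cluster 8 it was 1.24 and 3.61 CPM. The intervals of cluster 22 did not overlap those of clusters 4 and 8 in either LPS library. The 13 endothelial markers, summed, stood in cluster 22 at 4.44%, 4.37%, 1.48% and 4.99% of their endothelial cell-like level in PBS, PBS+RT, LPS and LPS+RT. At that share, RNA of the whole endothelial cell-like class would carry 2.74, 1.91, 0.692 and 2.43 CPM of Lbp, beside the measured 33.0, 47.3, 18.0 and 30.8 CPM. Large vessel and lymphatic endothelial cells held more Lbp than the whole class, so their RNA would carry more. The part of endothelial RNA in these UMIs was not tested. Cells of cluster 22 with a Lbp UMI had a median of 3.5, 9, 5 and 2 endothelial marker UMIs in PBS, PBS+RT, LPS and LPS+RT. Those without had 2, 2, 0 and 1. This cluster was singled out after its values were seen.

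**Figure D3:**
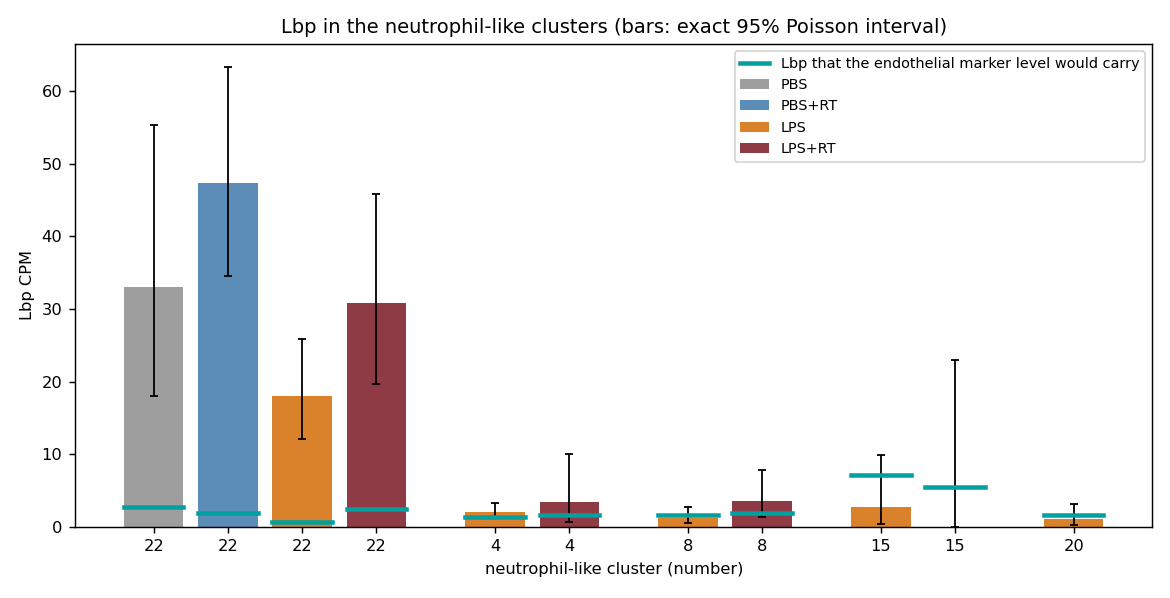
Lbp level in CPM in the 5 neutrophil-like clusters (x axis, cluster number) for each library with at least 40 cells of the cluster; bars show exact 95% Poisson intervals and teal lines the Lbp that the cluster's endothelial marker level would carry. Cluster 22 stands at 18.0 to 47.3 CPM in the 4 libraries, and clusters 4 and 8 at 1.24 to 3.61 CPM.

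Tirap, the bridging adaptor of the MyD88 branch, varied little. It was highest in neutrophil-like cells in each of the 4 libraries, at 37.5, 34.9, 28.2 and 23.6 CPM. Alveolar macrophage-like cells had 21.1, 16.4, 17.7 and 16.5 CPM and endothelial cell-like cells 17.2, 16.0, 18.6 and 14.2 CPM, while T cell-like cells had 1.10 to 3.69 CPM. Myd88, the adaptor shared by nearly all Toll-like receptors, was broad: 64.1, 59.6, 46.5 and 52.8 CPM in alveolar macrophage-like cells and 63.1, 53.4, 53.6 and 45.8 CPM in neutrophil-like cells. Classical monocyte-like cells had 60.7, 44.2, 81.0 and 48.6 CPM of Myd88, highest in LPS, where they were the leading class. There the interval of 67.9 to 95.9 CPM lay above that of neutrophil-like cells and overlapped that of nonclassical monocyte-like cells (53.5 CPM, 40.5 to 69.3). Fibroblast-like cells had 37.4, 45.2, 36.2 and 40.3 CPM, and B cell-like cells 10.2 to 15.4 CPM.

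Ticam2, the bridging adaptor of the TRIF branch, was a gene of monocytes and macrophages. Nonclassical monocyte-like cells had 35.1, 28.0, 25.4 and 32.4 CPM, classical monocyte-like cells 31.2, 34.7, 30.0 and 23.6 CPM, and alveolar macrophage-like cells 24.1, 22.8, 17.8 and 21.6 CPM. With these 3 classes ordered by level within each library, the intervals of neighbours overlapped. In LPS those of classical monocyte-like and alveolar macrophage-like cells did not. Neutrophil-like cells had 5.92, 5.13, 4.12 and 3.13 CPM, endothelial cell-like and fibroblast-like cells stayed below 1 CPM, and T cell-like cells had 0 UMIs in PBS+RT and LPS. Ticam2 in neutrophil-like cells was thus below the alveolar macrophage-like level in each of the 4 libraries, where Tlr4 in the LPS libraries had the opposite order. Ticam1, which encodes TRIF, was sparse. The alveolar macrophage-like level of Ticam1 was 7.78, 5.17, 5.84 and 6.92 CPM, and the highest class of at least 30 cells was interstitial macrophage-like cells of PBS at 12.4 CPM on 10 UMIs. Plasmacytoid dendritic cell-like cells of LPS had 16.3 CPM on 4 UMIs in 22 cells. The intervals of its first 4 classes overlapped in each library, so no order is read from them.

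Irak3, the brake on MyD88 signalling, was highest among classes of at least 30 cells in neutrophil-like cells in each of the 4 libraries, at 130 CPM in PBS, 236 CPM in PBS+RT, 861 CPM in LPS and 379 CPM in LPS+RT. The intervals of these 4 values did not overlap. Mast cell or basophil-like cells, 10 in PBS and 10 in LPS, had 312 CPM of Irak3 in PBS (18 UMIs, interval 185 to 494), above the neutrophil-like level with no overlap, and 582 CPM in LPS (36 UMIs, 408 to 806). Inflammatory macrophage-like cells had 254 CPM in LPS and 160 CPM in LPS+RT. B cell-like cells, low in the receptor genes, carried Irak3 at 96.0, 135, 156 and 107 CPM and were, among classes of at least 30 cells, the third in PBS, PBS+RT and LPS+RT. Nonclassical monocyte-like cells had 98.8, 148, 194 and 83.3 CPM. Alveolar macrophage-like cells were at the low end of myeloid cells in PBS (25.0 CPM) and PBS+RT (35.9 CPM), reached 160 CPM in LPS, and had 45.5 CPM in LPS+RT. Interstitial macrophage-like cells showed the same order with 18.6, 25.7, 144 and 39.5 CPM. NK cell-like cells stood at 0.571 to 11.4 CPM.

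The cells that contribute most of a gene's UMIs differ from those with the highest level, because classes differ in number and depth. Alveolar macrophage-like cells held 71.2% of all Tlr4 UMIs in PBS and 68.6% in PBS+RT, but 7.59% of those in LPS and 54.4% of those in LPS+RT. Neutrophil-like cells held 69.3% in LPS, from a class with 24.8% of all UMIs, and 21.7% in LPS+RT, from a class with 4.94%. Ly96 UMIs came mainly from endothelial cell-like cells in PBS (39.0%) and PBS+RT (41.3%) and from neutrophil-like cells in LPS (58.9%), and endothelial cell-like cells led again in LPS+RT (23.5%). For Cd14 the neutrophil-like share was 60.8% in LPS and 24.5% in LPS+RT, and interstitial macrophage-like cells held 25.7% in LPS+RT. Endothelial cell-like cells held 60.3%, 65.1%, 38.4% and 56.4% of the Lbp UMIs. Ticam2 UMIs were 73.8%, 77.0% and 70.8% alveolar macrophage-like in PBS, PBS+RT and LPS+RT, and 21.5% in LPS, where inflammatory macrophage-like cells held 33.5%. The Irak3 UMIs of LPS were 67.1% neutrophil-like, and those of PBS were 27.1% alveolar macrophage-like and 22.3% B cell-like. Over all cells of a library Tlr4 stood at 49.1, 57.9, 157 and 71.8 CPM and Irak3 at 23.9, 35.6, 319 and 54.7 CPM.

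**Figure D4:**
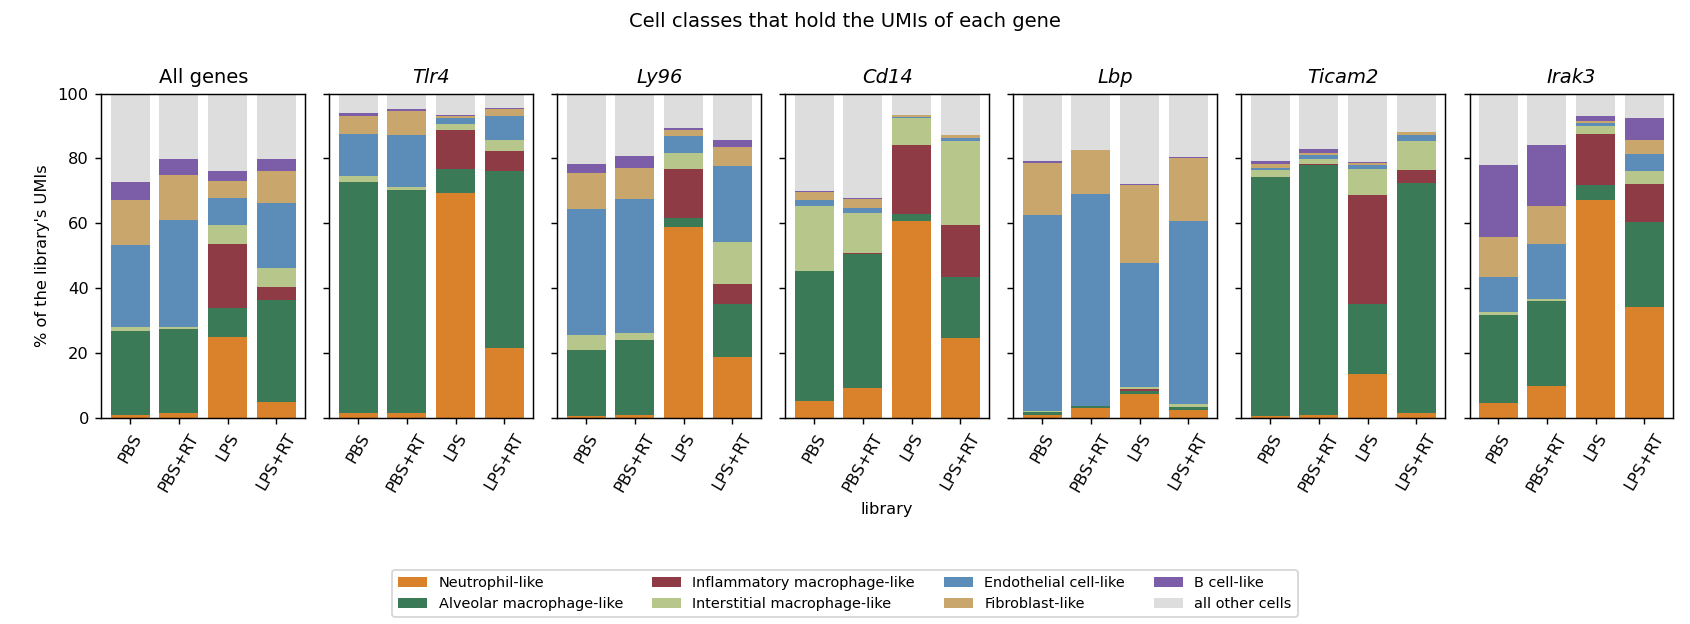
Percent of each library's UMIs that come from 7 cell classes and from all other cells, for all genes together and for Tlr4, Ly96, Cd14, Lbp, Ticam2 and Irak3. The Tlr4 bar is 71.2% alveolar macrophage-like in PBS and 69.3% neutrophil-like in LPS, and the Lbp bar is mainly endothelial cell-like in PBS, PBS+RT and LPS+RT.

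TLR4 and MD-2 act as a complex, so cells with UMIs of both Tlr4 and Ly96 were counted after thinning to 2000 UMIs. Cells with fewer UMIs were left out. Of 2955 neutrophil-like cells in LPS, 1391 had Tlr4, 425 had Ly96, 2493 had Cd14, and 215 had both Tlr4 and Ly96 (7.28%, interval 6.37% to 8.27%). All 3 genes were found in 184 of them (6.23%). In LPS+RT 40 of 663 neutrophil-like cells had Tlr4 and Ly96 (6.03%, 4.35% to 8.13%) and 32 had all 3. The intervals of these libraries overlapped. PBS had 1 such cell of 63, and PBS+RT had 0 of 88, which by a limit of 3 counts allows up to 3.41% of cells with both UMIs. The 63 cells of PBS are too few to tell their share from that of LPS. Alveolar macrophage-like cells with both genes numbered 3 of 641, 2 of 684, 1 of 182 and 5 of 812, and endothelial cell-like cells 5 of 2103, 2 of 2173, 1 of 774 and 5 of 1940. At this depth a cell without a UMI may still express the gene. The number of cells with both genes that their single shares would give was not computed. The counts therefore do not show that the genes occur together more often than their separate levels give. Thinned to 1000 UMIs, the neutrophil-like share with Tlr4 and Ly96 was 2.73% in LPS and 1.47% in LPS+RT, and without thinning it was 21.1% and 10.7%.

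LPS against PBS asks which of the 9 genes differed 48 hours after endotoxin without irradiation. In the 9 classes that reached 100 cells in each library, 63 gene and class pairs had at least 20 UMIs, of which 19 were higher and 2 lower in LPS. Of all genes measured in these classes 11.0% were called higher and 10.5% lower. Irak3 was higher in 9 of 9 classes and Cd14 in 7 of 9. Tlr4, Lbp and Myd88 were each higher in 1 class, and Ly96 and Ticam1 each lower in 1. In alveolar macrophage-like cells Irak3 was 6.39-fold higher in LPS (interval 5.69 to 7.19), and within cluster 16 of that class it was 30.9 CPM in PBS and 164 CPM in LPS. Wider ratios stood on few UMIs in alveolar type 1 cell-like cells, at 37.9-fold for Irak3 (11.8 to 194; 3 UMIs in PBS and 31 in LPS) and 13.2-fold for Cd14 (7.59 to 24.0; 17 and 61 UMIs). The 31 Irak3 UMIs of LPS lay in 9 of 122 cells. Irak3 was 1.97-fold higher (1.55 to 2.51) in nonclassical monocyte-like and 1.62-fold higher (1.39 to 1.89) in B cell-like cells. Lbp was 1.58-fold higher (1.30 to 1.92) in fibroblast-like cells, and Myd88 was 1.65-fold higher (1.17 to 2.36) in T cell-like cells. In alveolar macrophage-like cells 1 of the 9 members was called higher and 0 lower, where 15.2% of genes were called higher and 15.2% lower. The median log2 ratio of the 9 was -0.26, against -0.02 for all 12550 genes measured there.

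S100a8 and S100a9, calgranulin genes that mark neutrophils, were counted in other classes as well, and their levels are given beside the Cd14 and Irak3 calls. Where these UMIs came from, and their part in the calls, was not tested. S100a8 and S100a9 stood in fibroblast-like cells of LPS at 3.29% of their neutrophil-like level, in alveolar type 1 cell-like cells at 3.64%, in endothelial cell-like cells at 1.76%, in B cell-like cells at 1.48% and in alveolar macrophage-like cells at 0.974%. In LPS+RT the classes other than neutrophil-like cells were between 0.0870% and 0.822%. If all S100a8 and S100a9 outside neutrophil-like cells were neutrophil RNA, it would carry 69.6 CPM of Cd14 into fibroblast-like cells of LPS, where 64.0 CPM were measured, 37.2 of 47.5 CPM into endothelial cell-like cells and 31.3 of 30.1 CPM into B cell-like cells. For Irak3 it would carry 28.3 of 46.3 CPM into fibroblast-like and 15.1 of 26.1 CPM into endothelial cell-like cells. The same calculation gave 8.39 of 160 CPM in alveolar macrophage-like, 9.60 of 144 CPM in interstitial macrophage-like and 12.7 of 156 CPM in B cell-like cells. With this part subtracted, 9 pairs were higher and 7 lower in LPS against PBS. The lower ones include Cd14 of fibroblast-like and B cell-like cells, where the subtracted part exceeded the measured level and left 0. Alveolar type 1 cell-like cells had 8.70 CPM of Tlr4 in PBS (11 UMIs in 10 of 373 cells) and 72.5 CPM in LPS (25 UMIs in 6 of 122 cells). That is an 8.33-fold ratio (3.96 to 18.8), whose interval counts UMIs and not cells. Neutrophil RNA would carry 15.9 CPM of Tlr4 and 77.0 of the 177 CPM of Cd14 into this class in LPS.

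LPS+RT against PBS+RT asks the same among irradiated lungs, and here neutrophil-like cells could be compared, with 913 and 115 cells. Of 58 pairs over 10 classes, 12 were higher and 4 lower in LPS+RT, where 9.73% of all genes measured were called higher and 14.1% lower. In neutrophil-like cells Ly96 was 9.04-fold higher (4.52 to 21.2), Tlr4 5.11-fold higher (3.94 to 6.74), Cd14 2.89-fold higher (2.65 to 3.15) and Irak3 1.61-fold higher (1.40 to 1.86), while Lbp was 4.92-fold lower (3.07 to 7.96). Those are 4 higher and 1 lower of 7 members measured, in a class where 24.2% of genes were called higher and 18.2% lower. The median log2 ratio of the 7 was 0.68 against 0.16 for all genes of the class. These ratios compare different clusters. Within cluster 22, present in both, Tlr4 was 61.0 CPM in PBS+RT and 83.4 CPM in LPS+RT, a 1.37-fold ratio (0.944 to 1.98) whose interval held 1. This cluster had 93 and 98 cells, under the minimum of 100 for a call, so only ratios and intervals are read. In the same cluster Ly96 was 2.59-fold (1.06 to 6.94) and Cd14 2.01-fold higher (1.81 to 2.23), Irak3 had a ratio of 0.962 (0.786 to 1.17), and the interval of the Lbp ratio held 1. Cd14 was higher in 7 of 10 classes, including endothelial cell-like cells (4.25-fold, 3.38 to 5.38) and NK cell-like cells (8.49-fold, 3.48 to 26.9, from 5 UMIs in PBS+RT). In endothelial cell-like cells of LPS+RT, neutrophil RNA would carry 6.18 of 20.3 CPM of Cd14. The 1 lower call of Cd14 was in pericyte or smooth muscle cell-like cells (3.36-fold, 1.06 to 17.1; 34 UMIs in PBS+RT and 3 in LPS+RT), and its log2 ratio turned to 0.28 with every cell weighted equally. Irak3, higher in each of 9 classes in LPS against PBS, was here higher in 1 (neutrophil-like cells) and lower in 1 (T cell-like cells) of 8. The 2 sets of classes differ, and the 9 did not include neutrophil-like cells. Neutrophil RNA would carry 28.3 CPM of Irak3 into fibroblast-like cells of LPS and 2.79 CPM into those of LPS+RT. Tlr4 was 1.73-fold lower (1.40 to 2.16) in fibroblast-like cells.

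With the minimum lowered to 50 cells, a choice made after seeing the data, neutrophil-like cells of LPS could be set against the 79 of PBS. Ly96 was 7.04-fold higher (3.23 to 19.2), Irak3 6.61-fold higher (5.20 to 8.56), Tlr4 4.62-fold higher (3.48 to 6.27) and Cd14 2.41-fold higher (2.19 to 2.65). Different clusters are compared by these ratios, as cluster 22 held 49 of the 79 cells in PBS and 212 of 3611 in LPS. No ratio within cluster 22 is given for this pair of libraries. Classical monocyte-like cells had 3.69-fold more Tlr4 in LPS (2.22 to 6.49), where neutrophil RNA would carry 15.3 of 57.6 CPM. Cd14 was 1.67-fold lower in LPS in interstitial macrophage-like cells and 2.10-fold lower in dendritic cell-like cells.

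LPS+RT against LPS asks what differed with irradiation in LPS lungs. Of 73 pairs over 11 classes, 5 were higher and 17 lower in LPS+RT, where 6.49% of all genes measured were called higher and 8.99% lower. Irak3 was lower in 9 of 11 classes and Cd14 in 5, and Cd14 was higher in 2. Irak3 was 3.65-fold lower (3.06 to 4.36) in interstitial macrophage-like, 3.51-fold lower (3.22 to 3.82) in alveolar macrophage-like, 2.27-fold lower (2.15 to 2.40) in neutrophil-like and 1.59-fold lower (1.44 to 1.76) in inflammatory macrophage-like cells. Single clusters held the direction for Irak3: it was 3.26-fold lower in cluster 16 (alveolar macrophage-like) and 3.69-fold lower in cluster 21 (interstitial macrophage-like). In the neutrophil-like clusters it was 1.71-fold lower in cluster 22, 2.15-fold in cluster 4, 1.69-fold in cluster 8 and 2.72-fold in cluster 15. Tlr4 and Cd14 of neutrophil-like cells were not called, at 315 against 437 CPM and 1769 against 2116 CPM, although within cluster 22 Tlr4 was 1.74-fold lower (1.32 to 2.33). Cd14 was 1.53-fold higher (1.48 to 1.58) in inflammatory macrophage-like cells of LPS+RT, and Ly96 1.51-fold higher (1.20 to 1.92) in interstitial macrophage-like cells. The lower Cd14 of endothelial cell-like (2.34-fold, 1.98 to 2.76) and fibroblast-like cells (2.22-fold, 1.83 to 2.68) went with less S100a8 and S100a9 in those classes, at 0.350% and 0.735% of the neutrophil-like level in LPS+RT. With neutrophil RNA subtracted, 11 pairs were higher and 8 lower. The higher ones include Cd14 of B cell-like and fibroblast-like cells, whose LPS level the subtraction cut to 0.

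**Figure D5:**
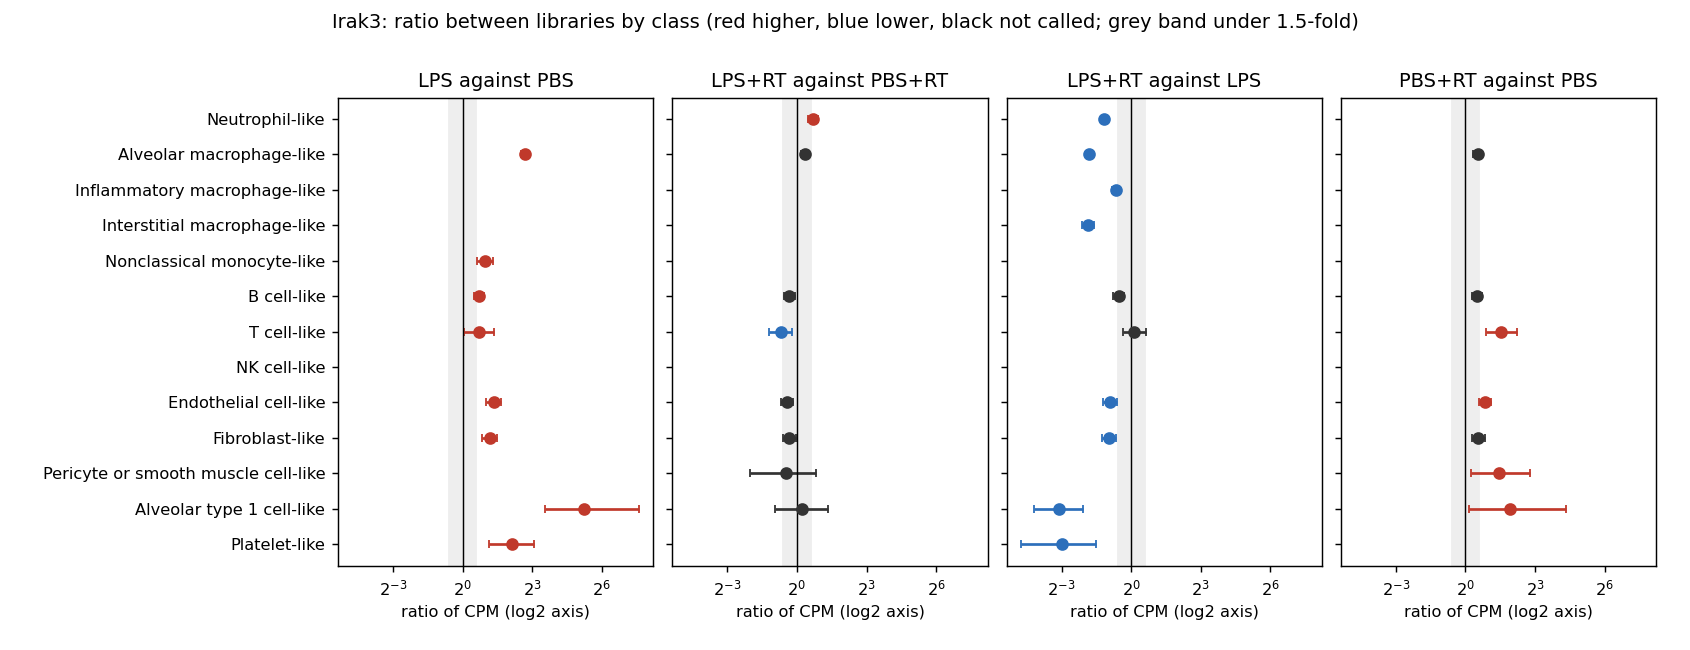
Ratio of Irak3 CPM between libraries (log2 axis) in each measured class for the 4 comparisons, with exact 95% intervals; red points were called higher, blue lower, black neither, the grey band marks ratios under 1.5-fold, and NK cell-like cells are left out because 1 library had under 3 UMIs. The points of LPS against PBS lie to the right of 1 in all classes drawn, and those of LPS+RT against LPS lie to the left in all but T cell-like cells.

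PBS+RT against PBS asks what differed with irradiation without endotoxin. Of 59 pairs over 9 classes, 6 were higher and 10 lower in PBS+RT, where 13.4% of all genes measured were called higher and 10.6% lower. Irak3 was higher in 4 of 8 classes, among them endothelial cell-like cells (1.79-fold, 1.49 to 2.17) and T cell-like cells (2.91-fold, 1.87 to 4.65). Cd14 was lower in 4 of 8, including endothelial cell-like cells (2.22-fold, 1.72 to 2.87). It was higher in 1, pericyte or smooth muscle cell-like cells (3.25-fold, 1.48 to 8.14; 8 and 34 UMIs), where the log2 ratio turned to -0.19 with every cell weighted equally. Ly96 was lower in 3 of 8, including endothelial cell-like (1.80-fold, 1.55 to 2.08) and fibroblast-like cells (1.69-fold, 1.25 to 2.28), where Tlr4 was 1.61-fold higher (1.33 to 1.97). The median cell of PBS+RT had 8563.5 UMIs against 4293 in PBS, and endothelial cell-like cells had 8268 against 3563; the part of this depth in the differences was not tested. Tirap had 0 calls in any of the 4 comparisons, with 7 to 9 classes measured in each, and Ticam2 had 0 with 1 to 4 measured. No p-value stands behind these counts of 0, since no test was made. The 4 comparisons share libraries in pairs, so a high or low library enters 2 of them.

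Genes around the receptor were read from 7 lists of 74 genes, of which 73 were in the tables. Neutrophil RNA was not subtracted for these lists, and its part in their counts was not tested. The list of the cytosolic endotoxin pathway (Casp4, Gsdmd, guanylate-binding proteins and others), which senses LPS inside the cell without TLR4, had 42 of 74 pairs higher and 4 lower in LPS against PBS, and 5 higher and 53 lower of 89 in LPS+RT against LPS. These are 56.8% higher and 59.6% lower, beside the 11.0% and 8.99% of all genes. In LPS+RT against PBS+RT 19 of 71 pairs were higher and 4 lower, beside 9.73% and 14.1% of all genes. In alveolar macrophage-like cells its median log2 ratio was 1.13 in LPS against PBS, where all genes had -0.02. Gbp5, a guanylate-binding protein that acts on bacteria and vacuoles in the cytosol, was 1.14 CPM in PBS and 60.3 CPM in LPS in those cells, 52.9-fold higher. In neutrophil-like cells Gbp5 was 221 CPM in LPS and 9.10 CPM in LPS+RT, 24.3-fold lower, and Gbp2 was 571 and 49.2 CPM, 11.6-fold lower. Cluster 20 of that class, with Rsad2 and Slfn4 among its top genes, had 478 cells in LPS and 8 in LPS+RT. Here and below, ratios of list genes in neutrophil-like and alveolar macrophage-like cells compare different mixtures of clusters. None of them is given within a single cluster.

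Of the later steps of the MyD88 branch, 19 of 95 pairs were higher (20.0%) and 1 lower in LPS against PBS, where 11.0% of all genes were called higher and 10.5% lower. In LPS+RT against PBS+RT 6 were higher and 13 lower of 102 (5.88% and 12.7%), where all genes also leaned lower (9.73% higher and 14.1% lower). In PBS+RT against PBS 18 of 96 were higher (18.8%) and 3 lower, beside 13.4% and 10.6%, and in LPS+RT against LPS 2 were higher and 6 lower of 114, beside 6.49% and 8.99%. The later steps of the TRIF branch had 22 of 70 higher (31.4%) and 4 lower in LPS against PBS, 8 higher and 9 lower of 73 in LPS+RT against PBS+RT (11.0% and 12.3%), and 2 higher and 18 lower of 85 (21.2%) in LPS+RT against LPS. Ikbke, a kinase that activates interferon regulatory factors, led this list: in alveolar macrophage-like cells it was 5.00 CPM in PBS and 53.7 CPM in LPS, 10.7-fold higher. In neutrophil-like cells Ikbke was 12.3 CPM in PBS+RT and 166 CPM in LPS+RT, 13.5-fold higher (7.65 to 26.2). The list of brakes on TLR4 signalling had 34 of 87 higher (39.1%) and 10 lower (11.5%) in LPS against PBS, 18 higher (20.0%) and 0 lower of 90 in LPS+RT against PBS+RT, and 16 higher (14.8%) and 26 lower (24.1%) of 108 in LPS+RT against LPS. Among them Socs1, a suppressor of cytokine signalling, was 7.81-fold and Tnip1, a partner of the ubiquitin editor A20, 7.09-fold higher in neutrophil-like cells of LPS+RT against PBS+RT. Irak2, a kinase of the complex that forms on MyD88, was 403 and 825 CPM in those cells, 2.04-fold higher.

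Folding and transport genes of TLR4 had 8 of 70 higher (11.4%) and 2 lower (2.86%) in LPS against PBS, beside 11.0% and 10.5% of all genes. In LPS+RT against LPS 1 was higher (1.18%) and 11 lower (12.9%) of 85, beside 6.49% and 8.99%. Other Toll-like receptors had 4 of 27 higher (14.8%) and 1 lower (3.70%) in LPS against PBS, beside the same 11.0% and 10.5%. In LPS+RT against PBS+RT 9 were higher (31.0%) and 3 lower (10.3%) of 29, beside 9.73% and 14.1% of all genes. In LPS+RT against LPS 3 were higher (6.12%) and 4 lower (8.16%) of 49, beside 6.49% and 8.99%. Tlr2, the receptor for bacterial lipopeptides, was 109 CPM in neutrophil-like cells of PBS+RT and 388 CPM in LPS+RT, 3.57-fold higher. Uptake and disposal genes had 26 of 78 higher (33.3%) and 16 lower (20.5%) in LPS against PBS, beside 11.0% and 10.5% of all genes. They had 27 higher (30.0%) and 16 lower (17.8%) of 90 in LPS+RT against PBS+RT, beside 9.73% and 14.1%. In LPS+RT against LPS 27 were higher (25.5%) and 21 lower (19.8%) of 106, beside 6.49% and 8.99%. Aoah, whose product removes acyl chains from LPS and so inactivates it, was 1.58 CPM in alveolar macrophage-like cells of PBS and 77.8 CPM in LPS, and 4.22-fold lower in LPS+RT than in LPS. Aoah was 2.98-fold higher in neutrophil-like cells of LPS+RT against PBS+RT.

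The genes whose levels ran most alike were read from Pearson's r of log2(CPM + 1) over 47 sums of a class in a library, with 8352 genes compared; the sums share libraries and class depths, so r is a description. Beside Tlr4 these were Plin2 (r = 0.86), Dmxl2, Tnfaip2, Fnip2 and Sgms2 (each 0.85). Beside Cd14 were Nlrp3 and Igsf6 (each 0.94), Il1b (0.93), Lilrb4a and Clec4d (each 0.92). Ly96 had Blcap and Atp6v0b (each 0.75), Nfe2l2 and Clcn7 (each 0.73) and Cnih4 (0.71). Lbp had Cebpd (0.90), Csgalnact1, Meis2 and Ptpru (each 0.89) and B4galt4 (0.88), and Irak3 had Cyp4f18 (0.82), Myo5a and Dusp16 (each 0.80), Lpcat2 and Gm31718 (each 0.79). Among the members, Tlr4 ran with Cd14 at r = 0.76, with Tirap at 0.74, with Ly96 at 0.58 and with Lbp at 0.05.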

How the data were processed

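The authors deposited unnormalized UMI counts, 1 matrix of genes by barcodes for each library, written by Cell Ranger 7.0.1, per the file headers. The submitters' processing notes list Cell Ranger 7, Seurat 4.3.0, R 4.2.2 and mm10. Whether intronic reads were counted is not given in the sources used here. If they were, genes with long introns gain UMIs.

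Barcodes under 500 UMIs, under 200 genes or over 10% mitochondrial UMIs were left out. Scrublet's method (expected rate 8%) removed 132, 139, 211 and 276 doublets in PBS, PBS+RT, LPS and LPS+RT. In LPS its automatic threshold marked under 0.5% of cells, so the median threshold of the other libraries was used. The 4 libraries, with 65995600 to 80013887 UMIs each, were clustered together (2000 variable genes without the 9 members, 30 components, 15 neighbours, Leiden resolution 1.5). Of 52 clusters, 45 were named into 20 classes from marker lists. A cluster whose second class scored over 0.75 of the first stayed unnamed, a limit set after the clusters were seen. Barcode sequences were not used here, so barcodes shared between libraries were not counted.

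UMIs were summed per class and library (CPM), with exact Poisson, Clopper-Pearson and conditional binomial intervals of 95%. The members, lists and rules were chosen with earlier results of these data known. The 9 members are always named, and up to 4 genes of each pathway list with at least 20 CPM and the largest ratio can be. Alternatives were another class assignment, clusterings, weights, scaling, filters, doublets kept, neutrophil RNA subtracted (by S100a8 and S100a9) and a 2-fold threshold. Ratios within single clusters and classes with at least 50 cells were added after seeing the data. The interval step was tested on simulated data. Tools were Python 3.11.15 with scanpy 1.11.5, pandas 2.3.3, scipy 1.17.1, numpy 2.4.6, matplotlib 3.10.9, scikit-learn 1.9.0, python-igraph 0.11.9 and leidenalg 0.10.2.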

Additional observations from a re-analysis of the deposited data

Results flagged for a closer look

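Irak3 ratios had opposite directions under the same contrast in 3 classes; with 1 library per group the difference between the contrasts was not tested. In T cell-like cells the log2 ratio of LPS against PBS was 0.70 without irradiation and -0.71 with it, on levels of 8.93, 26.0, 14.5 and 15.9 CPM in PBS, PBS+RT, LPS and LPS+RT. In endothelial cell-like cells the log2 ratio of irradiated against not irradiated was 0.84 in PBS lungs and -0.92 in LPS lungs, on 10.3, 18.5, 26.1 and 13.8 CPM. In alveolar type 1 cell-like cells it was 1.93 in PBS lungs and -3.09 in LPS lungs, with 3 and 19 UMIs in the PBS and PBS+RT libraries and 31 and 12 UMIs in the LPS and LPS+RT libraries. Neutrophil RNA would carry 15.1 CPM of Irak3 into endothelial cell-like and 31.3 CPM into alveolar type 1 cell-like cells of LPS.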

How the results depend on the processing

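No paired analysis was possible because each group is 1 library. With neutrophil RNA subtracted, members called in LPS against PBS went from 19 to 9 higher and from 2 to 7 lower, and in LPS+RT against LPS from 5 to 11 higher and from 17 to 8 lower. The log2 ratio then reversed for Cd14 in LPS against PBS in B cell-like (-2.58), fibroblast-like (-4.84) and platelet-like cells (-1.03) and for Irak3 in fibroblast-like cells (-0.16). In LPS+RT against LPS it reversed for Cd14 in B cell-like (3.12), endothelial cell-like (0.43) and fibroblast-like cells (4.35) and for Irak3 in endothelial cell-like (0.17) and fibroblast-like cells (0.20). In B cell-like and fibroblast-like cells of LPS the subtracted Cd14 exceeded the measured level. The level was set to 0 there and a floor of 3 counts entered the ratio. The Cd14 values of these 2 classes are thus set by the floor and are not measured reversals. With classes from each cell's own marker score, Ly96 in nonclassical monocyte-like cells (LPS against PBS) became 0.23 and Cd14 in pericyte or smooth muscle cell-like cells (LPS+RT against PBS+RT) 2.52, and LPS+RT against LPS had 3 higher. With every cell weighted equally, that Cd14 ratio became 0.28, and in PBS+RT against PBS -0.19. At a 2-fold threshold, LPS against PBS had 0 lower, LPS+RT against PBS+RT 2 lower in place of 4, and LPS+RT against LPS 2 higher and 11 lower. Classes with at least 50 cells gave 31 higher and 7 lower in LPS against PBS and 9 higher and 27 lower in LPS+RT against LPS. The stricter filter on cells gave 3 higher and 11 lower in LPS+RT against LPS. Doublets kept gave 5 lower in LPS against PBS and 2 lower in LPS+RT against PBS+RT. Lower calls in LPS against PBS were 1 with coarser clusters and 1 with the median ratio set to 1. Apart from the changes that follow from fewer cells, a higher threshold or the subtraction itself, the cause was not tested. Of the 75 called ratios, 48 to 67 stayed called, depending on the setting. Some settings measured fewer of them: the stricter filter on cells kept 48 of 54 measured, finer clusters 60 of 63 and coarser clusters 65 of 66. Depth limits Ticam1, Ticam2 and the PBS neutrophil-like cells most.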
